A study of Mus musculus with 4 samples.

Results

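Leukocyte adhesion molecules and their integrin counter-receptors were followed here as 10 genes of the mouse aortic arch, found by their symbols among the 31053 genes of the count tables. They are the endothelial ligands Vcam1, Icam1 and Icam2, the selectins Selp and Sele, the selectin ligand Selplg, and the integrin subunits Itgal, Itgam, Itga4 and Itgb2. All 10 genes had UMIs (unique molecular identifiers, each standing for 1 captured RNA molecule) in the kept cells.

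The cells came from the arch of the aorta with its branches and the tissue around it, taken from male mice of 4 groups, and each group was pooled into 1 library for droplet-based RNA sequencing. Lox_CTR and KO_CTR came from 4 mice each that had saline and standard chow. Lox_HFD and KO_HFD came from 3 mice each that had a single injection of a viral vector and then a high-fat diet for 21 weeks. The mice of all 4 groups entered the protocol at 3 months of age. Lox libraries carry the genotype label Nrf2Cdh5Lox (floxed Nrf2 without recombination) and KO libraries the label Nrf2Cdh5tKO, in which the transcriptional activity of Nrf2 is removed in cells with Cdh5-driven Cre recombinase. That promoter marks endothelial cells and is also active in part of the hematopoietic lineage, so that KO leukocytes may hold recombined and other cells. With 1 library per group the groups have no replicates, and no difference between diets or genotypes was tested. Diet, vector, pool and library cannot be told apart, and neither can genotype label, pool and library. The targeted gene Nfe2l2, which encodes Nrf2, stood at 189, 386, 176 and 342 UMIs per 1000000 UMIs of the same cells (CPM) in the endothelial cells of Lox_CTR, KO_CTR, Lox_HFD and KO_HFD, so it was not lower under the KO label. The tables do not show where in the gene these UMIs lie, so whether they read the excised part was not tested, and Lox and KO below stand for the labels.

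The 4 libraries held 1160 to 8512 barcodes, of which 14148 of 15599 were kept as cells, with median depths of 9200.5 to 14152.5 UMIs. Cells were gated on 51 marker genes of 5 types, none of them a member, which gave 166 endothelial cells, 1958 smooth muscle cells, 7614 fibroblasts, 1483 phagocytes and 1117 lymphocytes. Only 72, 42, 29 and 23 endothelial cells came from Lox_CTR, KO_CTR, Lox_HFD and KO_HFD, which is the order of libraries in all lists of 4 values below. All 10 endothelial markers had UMIs in the endothelial gate, at a summed 5264 to 8361 CPM, against 5.37 to 49.2 CPM in the other gates. Of 14126 distinct barcodes, 22 were found in more than 1 library.

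Leukocytes leave the blood in steps. Selectins on the endothelium, P-selectin (Selp) and E-selectin (Sele), catch passing cells through sugar-bearing ligands such as PSGL-1 (Selplg), and the cells roll. Chemokine signals then switch leukocyte integrins to a sticky state: LFA-1 (Itgal with Itgb2) binds ICAM-1 and ICAM-2, Mac-1 (Itgam with Itgb2) binds ICAM-1, and VLA-4 (Itga4 with Itgb1) binds VCAM-1. In atherosclerosis, VCAM-1 and the selectins on activated endothelium are known for their part in monocyte entry into the intima.

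The members lie on 8 chromosomes of GRCm38. Sele (chr1:164048234-164057677) and Selp (chr1:164115264-164150026) are neighbours on the plus strand, 57586 bases apart, and Itgal (chr7:127296260-127335138) and Itgam (chr7:128062640-128118491) share chromosome 7, 727501 bases apart. Vcam1 is at chr3:116109949-116129688, Icam1 at chr9:21015985-21028817, Icam2 at chr11:106377656-106388075, Selplg at chr5:113818536-113832644, Itga4 at chr2:79255426-79333123 and Itgb2 at chr10:77530252-77565708. Vcam1, Icam1, Selp and Sele are textbook targets of NF-kB, so the promoters were searched for GGNNNTTCC, a core of its binding motif, on both strands, from 250 bases before to 50 after the RefSeq gene start. RefSeq promoters of GRCm38.p6 were held for 5 of the 10 members (Icam1, Selp, Sele, Itgam and Itga4). A match was found in Icam1, Selp and Sele and not in these windows of Itgam and Itga4, and 18.5% of all 32851 promoters of that length held one. The matches are shown with flanks, 5′ to 3′ on the strand of the gene, with the motif in capitals, because these are the genes whose endothelial levels are described next. Distances are from the start of the gene position given above, which for Icam1 differs from the RefSeq start (21015940):
Icam1, chr9:21015777-21015805, 198 bases before the start, matching on both strands: acttcagtttGGAAATTCCtagatcgcag
Icam1, chr9:21015846-21015874, 129 bases before the start, matching on the opposite strand: gtctccacccGGAAATACCgaagccctcg
Selp, chr1:164115240-164115268, 14 bases before the start, matching on the opposite strand: caactttaggGGAAAGGCCgtgatacatt
Sele, chr1:164048079-164048107, 145 bases before the start, matching on the gene's strand: ttaactcagtGGATATTCCcagaaaactt
A match of letters is a description of the window and not a mapped binding site.

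**Figure D1:**
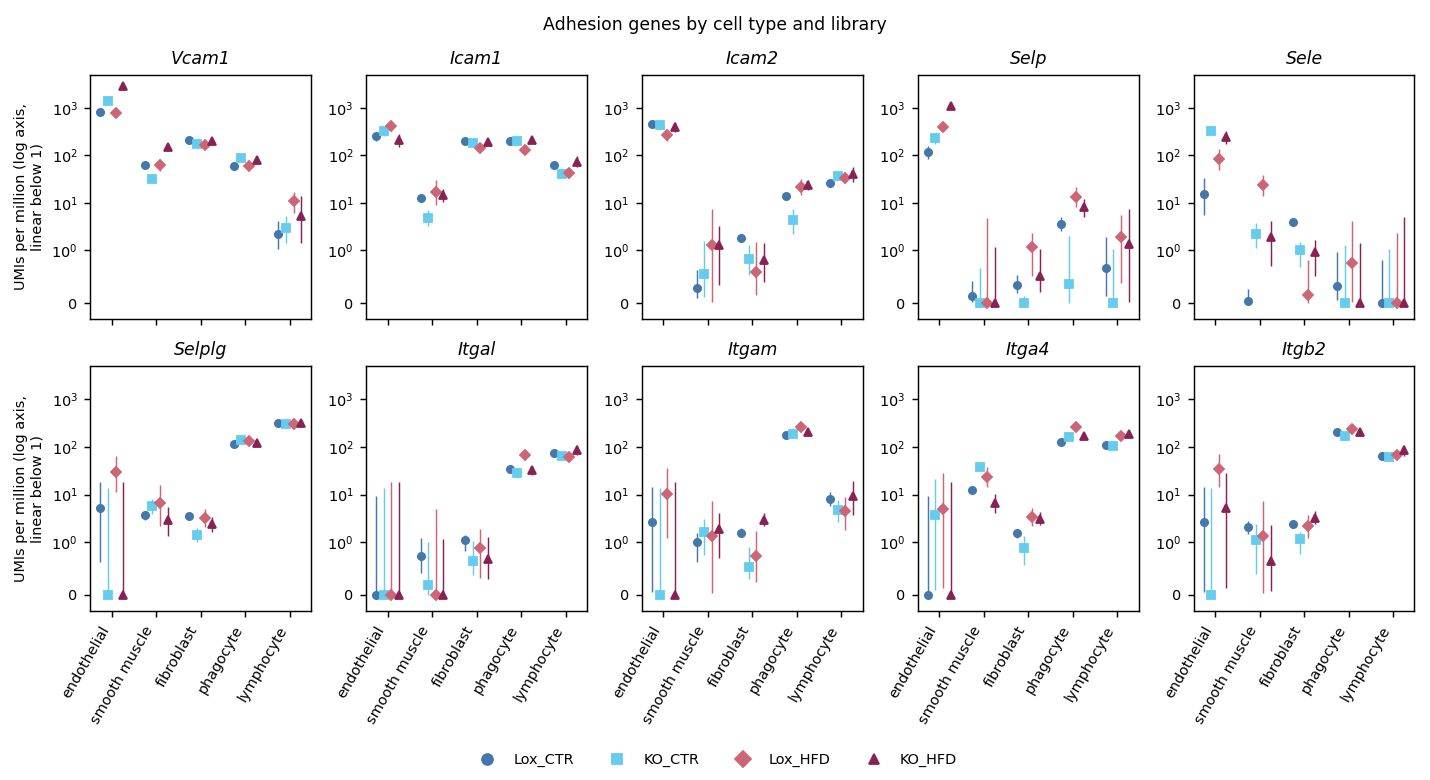
Level of each of the 10 genes in the 5 gated cell types, in CPM on a log axis, with 1 point per library. Vcam1, Icam2 and Selp have their highest points in endothelial cells, and Selplg, Itgal, Itgam, Itga4 and Itgb2 in phagocytes and lymphocytes.

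Vcam1, the ligand of VLA-4, was highest in endothelial cells, at 797, 1417, 759 and 2884 CPM. Fibroblasts followed at 213, 174, 166 and 196 CPM, below every endothelial value. Phagocytes had 58.3 to 88.4 CPM, smooth muscle cells 31.1 to 149 CPM and lymphocytes 2.22 to 10.7 CPM. The ranges of phagocytes and smooth muscle overlapped, and those of other neighbours in this order did not. Fibroblasts, the most numerous gate, held 76.0% of all Vcam1 UMIs of the kept cells and the endothelial gate 5.44%. A Vcam1 UMI was seen in 58.6% of fibroblasts and 42.8% of endothelial cells, while after thinning each cell to 1000 UMIs the shares were 14.4% and 25%, against 0.812% in lymphocytes as a background. At 2000 UMIs they were 23.8%, 38.4% and 1.12%.

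Icam1, which binds LFA-1 and Mac-1, was spread over more cell types. Endothelial cells had 251, 321, 407 and 209 CPM, phagocytes 199, 202, 131 and 207 CPM and fibroblasts 198, 184, 141 and 187 CPM. The endothelial range lay just above the phagocyte range, and the ranges of phagocytes and fibroblasts overlapped. Lymphocytes (41.5 to 73.8 CPM) and smooth muscle cells (4.91 to 17.3 CPM) were lower without overlap. Fibroblasts held 75.1% of the Icam1 UMIs. Fibroblasts with a Vcam1 UMI had an Icam1 UMI in 68.1% of cells and those without one in 46.2%, but the former were also deeper, with a median of 14108 against 11334 UMIs.

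Icam2, a ligand of LFA-1 known for its steady presence on resting endothelium, stood at 463, 427, 271 and 398 CPM in endothelial cells. Lymphocytes had 25.8, 37.6, 34.1 and 40.3 CPM and phagocytes 13.7, 4.28, 21.9 and 23.8 CPM. The ranges of these 3 types did not overlap. Fibroblasts and smooth muscle cells were at 1.86 CPM or lower in every library.

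The endothelial gate held 69.5% of the Selp UMIs of the kept cells, and 35.2%, 80%, 64.5% and 86.8% by library, while phagocytes held 12.8%. Endothelial levels were 117, 227, 402 and 1077 CPM, in order of library, against 0.356 to 13.6 CPM in phagocytes and 0 to 1.89 CPM in the other types. The value of 13.6 in Lox_HFD phagocytes rested on 18 UMIs of 1 cell. Sele was rare: 12 of 166 endothelial cells had a UMI, and the endothelial levels of 15.5, 329, 85.4 and 239.9 CPM came from 3, 3, 2 and 4 cells. Smooth muscle cells reached 24.0 CPM in Lox_HFD through 1 cell, so the ranges overlapped, and in fibroblasts 39 of 7614 cells held 251 UMIs. Fibroblasts held 52.6% of the Sele UMIs of the kept cells and the endothelial gate 32.9%. By library the fibroblast shares were 86.4%, 21.4%, 2.44% and 19.4%, and the endothelial shares 2.47%, 69.0%, 41.5% and 70.1%. No lymphocyte had a Sele UMI, and with a floor of 3 UMIs over the 4 libraries the endothelial level of 150.2 CPM was at least 512-fold higher. Without KO_CTR the bound was at least 204-fold.

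Differences between cell types were tested on the UMIs summed by library and type (20 sums) with edgeR's quasi-likelihood test, library as a block, over 12815 genes. The block takes up what a condition does alike in all types, and differences between conditions that vary by type stay in the residual spread. Endothelial cells against smooth muscle cells gave 6 of 10 members at an adjusted p under 0.05, 5 higher and 1 lower, where 34.7% of all genes were called, 14.8% higher and 19.9% lower. Vcam1 was higher by a log2 fold change of 3.97 ± 0.34 (SE, adjusted p = 5.3e-09), Icam1 by 4.49 ± 0.30, Icam2 by 9.33 ± 0.47, Selp by 10.86 ± 0.60 and Sele by 5.86 ± 1.11 (adjusted p = 3.7e-04). Itga4 was lower, at -3.68 ± 1.27 (adjusted p = 0.028), a call that rests on 2 endothelial UMIs. It was lost without Lox_CTR (adjusted p = 0.10), without Lox_HFD (0.082) and without TMM scaling (0.053). Selplg (0.54 ± 0.77, adjusted p = 0.64), Itgam (0.79 ± 1.28, adjusted p = 0.69) and Itgb2 (2.08 ± 0.81, adjusted p = 0.053) did not pass, and Itgal had no endothelial UMI.

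Against fibroblasts, the endothelial cells had 4 members higher, where 33.2% of all genes were called and 12.1% were higher. These were Vcam1 at 2.45 ± 0.32 (adjusted p = 2.3e-06), Icam2 at 7.98 ± 0.35, Selp at 9.41 ± 0.45 and Sele at 5.84 ± 1.03. Icam1 did not pass, at 0.43 ± 0.24 (adjusted p = 0.19), and passed without TMM scaling, at 0.75 (adjusted p = 0.021). Selplg (1.19 ± 0.79, adjusted p = 0.28), Itgb2 (1.64 ± 0.76, adjusted p = 0.11), Itgam (0.65 ± 1.23, adjusted p = 0.74) and Itga4 (-0.35 ± 1.94, adjusted p = 0.92) did not pass either. Itgal, which had no endothelial UMI, did not pass (adjusted p = 0.40). Against phagocytes 9 members were called, 4 higher and 5 lower in endothelial cells, where 42.7% of all genes were called, 17.9% higher and 24.8% lower. Vcam1, Icam2, Selp and Sele were the higher members, with log2 fold changes of 3.73 ± 0.34, 4.30 ± 0.32, 5.64 ± 0.40 and 8.56 ± 1.42, while Icam1 had 0.24 ± 0.25 (adjusted p = 0.47) and passed without TMM scaling, at 0.69 (adjusted p = 0.027). All the leukocyte members were lower, Selplg by 4.52 ± 0.46, Itgb2 by 5.03 ± 0.40, Itgam by 6.63 ± 0.52 and Itga4 by 6.90 ± 0.84 on the log2 scale. Itgal had no endothelial UMI.

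The scaling mattered for the balance of all genes in the endothelial contrasts. Calls over all genes were 1901 higher and 2544 lower against smooth muscle with TMM scaling, and 2728 and 1640 without it. Against fibroblasts they were 1557 and 2694, or 2413 and 1656, and against phagocytes 2291 and 3184, or 3682 and 1867. The median log2 fold change of all genes was -0.15, -0.23 and -0.16 in these contrasts and moved to 0.14, 0.10 and 0.29 without TMM. The fold changes of Vcam1, Icam2, Selp and Sele exceeded that shift many times over.

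Fibroblasts differed from smooth muscle in 3 members, 2 higher and 1 lower, where 47.5% of all genes were called, 27.6% higher and 19.9% lower. Vcam1 (1.51 ± 0.31, adjusted p = 3.7e-04) and Icam1 (4.06 ± 0.27) were higher in fibroblasts, and Itga4 was lower (-3.33 ± 0.39, adjusted p = 2.4e-07). Sele, at 0.03 ± 0.97, did not pass (adjusted p = 0.99), and without Lox_CTR it stood at -2.49 (adjusted p = 0.033). Only 5 of 1958 smooth muscle cells had a Sele UMI. Lox_CTR held 1 of their 37 UMIs and 210 of the 251 Sele UMIs of fibroblasts. The other members that did not pass were Icam2 (1.35 ± 0.66, adjusted p = 0.10), Selp (1.45 ± 1.20, adjusted p = 0.35), Selplg (-0.65 ± 0.31, adjusted p = 0.096), Itgal (0.77 ± 0.51, adjusted p = 0.23), Itgam (0.14 ± 0.42, adjusted p = 0.82) and Itgb2 (0.43 ± 0.36, adjusted p = 0.35).

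Among 31 tested genes of the wider adhesion cascade, a list of 39 genes (selectin-ligand enzymes, other integrin subunits, integrin activators and junctional molecules), 14 were higher and 10 lower in endothelial cells than in smooth muscle, 15 and 5 against fibroblasts, and 15 and 8 against phagocytes. Over all genes the shares higher and lower were 14.8% and 19.9%, 12.1% and 21%, and 17.9% and 24.8%. Podxl, a sialomucin that can carry selectin ligands, led against smooth muscle (11.81 ± 0.45) with Gcnt1, an enzyme that builds branched O-glycans (10.86 ± 0.82), and the laminin-binding subunit Itga6 (6.92 ± 0.53). Alcam (-2.50 ± 0.41), Mcam (-2.15 ± 0.29) and Itgb3 (-1.88 ± 0.44) were the lowest. Against fibroblasts the junctional molecule Esam (9.34 ± 0.20), Podxl (8.75 ± 0.30) and Itga6 (8.05 ± 0.50) led, and Alcam (-1.79 ± 0.42), Cd34 (-1.40 ± 0.20) and Itgav (-1.38 ± 0.35) were lowest. Against phagocytes Podxl (10.07 ± 0.41), Esam (9.11 ± 0.25) and Pecam1 (7.95 ± 0.31) led, and kindlin-3 (Fermt3, -5.37 ± 0.41) and Cd44 (-3.73 ± 0.45) were among the lowest. In fibroblasts against smooth muscle, 9 of the list were higher, led by Cd34 (5.95 ± 0.24), Gcnt1 (4.90 ± 1.16) and Jam2 (3.21 ± 0.25), and 12 were lower, led by Mcam (-6.65 ± 0.25), Esam (-5.00 ± 0.20) and Rasgrp2 (-3.26 ± 0.20), beside 27.6% higher and 19.9% lower of all genes.

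Within the endothelial gate, Vcam1, Selp and Sele were found in one set of cells. The gate was split by 4 capillary markers (Car4, Rgcc, Gpihbp1 and Cd36), a split chosen after the levels were seen. The 89 cells with at least 3 of these markers held 5 Vcam1 UMIs (12.6 CPM, 95% interval 4.09 to 29.4) and no UMI of Selp or Sele, which allows at most 9.30 CPM for each. In the 77 other cells Vcam1 stood at 1831, 2563, 955 and 3141 CPM, Selp at 269, 411, 513 and 1173 CPM, and Sele at 35.9, 596, 109 and 261 CPM. A Vcam1 UMI was present in 87.0% of these cells and a Selp UMI in 74.0%. Their median depths were 5995 to 7726 UMIs by library, against 3244 to 5711 UMIs in the cells with capillary markers.

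Icam1 and Icam2 were present on both sides of this split. Icam1 was at 262 CPM (214 to 318) in the cells with capillary markers and 308 CPM (267 to 354) in the others, and Icam2 at 282 CPM (232 to 339.8) and 481 CPM (429 to 537). Among the cells with fewer capillary markers, 28 had arterial markers (Gja5, Gja4, Sox17, Bmx and Hey1) and none of the other subsets. All 28 had a Selp UMI, with a level of 477 CPM, and Vcam1 stood at 1671 CPM. Per cell, 53 of 71 endothelial cells with Vcam1 (74.6%) also had Selp, against 4 of 95 without Vcam1 (4.21%), where the median depths were 7206 and 4121 UMIs. By library, the share with Selp among Vcam1-bearing cells was 66.7%, 72.2%, 76.9% and 87.5%.

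**Figure D2:**
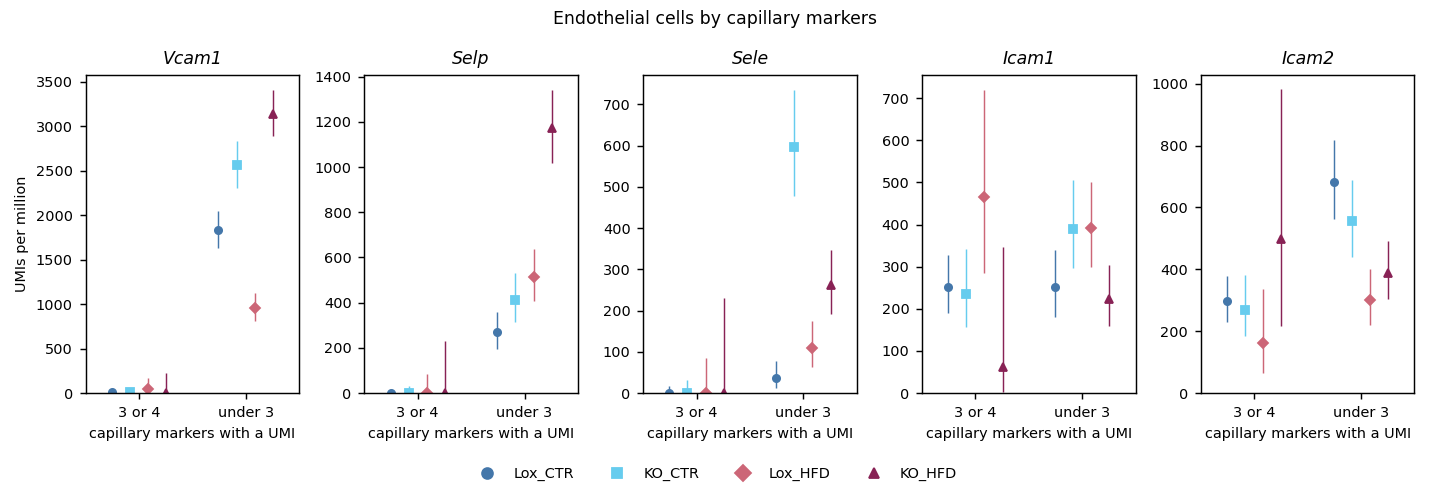
Level in CPM of Vcam1, Icam1, Icam2, Selp and Sele in endothelial cells with 3 or 4 and with fewer than 3 capillary markers, 1 point per library with its exact Poisson 95% interval. Vcam1, Selp and Sele sit at or near 0 in the cells with capillary markers, and Icam1 and Icam2 do not.

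A few cells carried much of the endothelial Vcam1. The highest cell held 113 of 308 UMIs in Lox_CTR, 204 of 375 in KO_CTR, 39 of 151 in Lox_HFD and 326 of 565 in KO_HFD, and the 28 cells with 10 or more UMIs held 88.9% of the total. For Selp the highest cell held 6 of 45, 19 of 60, 17 of 80 and 105 of 211 UMIs, and for Sele 3 of 6, 67 of 87, 11 of 17 and 19 of 47. Ratios between libraries are therefore given also without these cells.

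High-fat diet with the vector was set against control within each genotype label, and genotype labels within each diet, as log2 ratios of CPM with an exact binomial 95% interval that covers counting error only. A ratio was counted as past the limit at 1.5-fold or more with an interval that leaves out 0, among genes with at least 20 UMIs over the pair. The median ratio of all genes counted lay between -0.17 (diet in KO, lymphocytes) and 0.25 (genotype under control, phagocytes), and ratios are to be read against it. In endothelial cells, where it was between -0.06 and 0.02, 5 members could be counted. With diet, 4 passed in Lox (20.1% of all genes counted) and 3 in KO (22.0%). Between genotype labels, 3 passed under control diet (11.4%) and 4 under the high-fat diet (15.7%).

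Endothelial Selp was past the limit and higher in all 4 comparisons. With diet the ratio was 1.79 (1.24 to 2.35) in Lox and 2.25 (1.83 to 2.69) in KO, and KO against Lox gave 0.96 (0.38 to 1.55) under control and 1.42 (1.04 to 1.81) under the high-fat diet. In the cells with fewer than 3 capillary markers the 4 ratios were 0.93, 1.51, 0.61 and 1.19. Without the highest cell of each library they were 1.65, 2.03, 0.65 and 1.03, and the genotype ratio under control no longer passed (-0.02 to 1.32). The composition of the gate moved with these ratios: 49 of 72, 22 of 42, 13 of 29 and 5 of 23 cells had at least 3 capillary markers. Smooth muscle and fibroblast markers in the endothelial gate were also highest in KO_HFD, at 2925 and 4824 CPM against 568 to 753 and 1002 to 1968 CPM elsewhere, and their part in the result was not tested.

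Endothelial Vcam1 was higher with diet in KO, by 1.03 (0.83 to 1.22), and in Lox the ratio was -0.07 (-0.36 to 0.21). KO was above Lox by 0.83 (0.61 to 1.05) under control and 1.93 (1.66 to 2.19) under the high-fat diet. Among cells with fewer than 3 capillary markers the diet ratios became -0.94 in Lox and 0.29 in KO, and the genotype ratios 0.49 and 1.72. Only the genotype ratio under the high-fat diet was past the limit and in the same direction in all cells, in these cells and without the highest cell (1.29). Sele followed the few cells that held it, with diet ratios of 2.46 (1.05 to 4.09) in Lox and -0.45 (-1.0 to 0.07) in KO, the latter -1.19 in cells with fewer than 3 capillary markers and 1.06 without the highest cell, and genotype ratios of 4.40 (3.22 to 5.89) and 1.49 (0.66 to 2.38).

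Icam1 differed in direction between the genotype labels: with diet it was higher in Lox, 0.70 (0.25 to 1.14), and lower in KO, -0.62 (-1.19 to -0.06). Under the high-fat diet KO was below Lox, -0.96 (-1.54 to -0.40), and under control the ratio was 0.36 (-0.08 to 0.79). In cells with fewer than 3 capillary markers the diet ratios were 0.64 and -0.81, and without the highest cells 0.50 and -0.61, where they no longer passed. Icam2 was lower with diet in Lox, -0.77 (-1.24 to -0.33), and the other 3 ratios (-0.10, -0.12 and 0.55) did not pass. Selplg, Itgal, Itgam, Itga4 and Itgb2 had too few endothelial UMIs for a ratio.

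**Figure D3:**
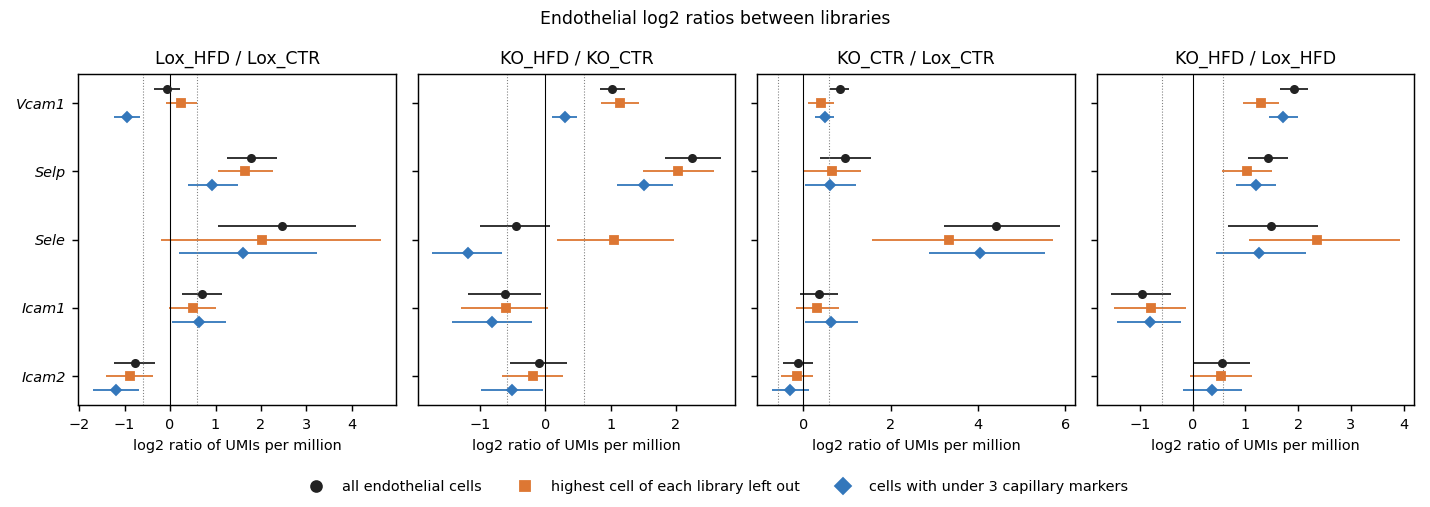
Log2 ratios of CPM in endothelial cells between libraries for 5 genes in the 4 comparisons, with exact binomial 95% intervals, for all cells, for cells with fewer than 3 capillary markers and without the highest cell of each library, and dotted lines at 1.5-fold. The points of Selp lie above 0 in each comparison, and Icam1 lies on opposite sides of 0 with diet in Lox and KO.

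The other adhesion genes in endothelial cells were mostly not past the limit between genotype labels, 1 of 21 counted under control and 2 of 18 under the high-fat diet, where 11.4% and 15.7% of all genes were. With diet 12 of 21 were past it in Lox and 9 of 19 in KO, beside 20.1% and 22.0% of all genes. The largest were Alcam (4.28, from 2 and 20 UMIs) and Itga5 (1.90) in Lox, and Itga6 (-2.52) and Itgav (1.76) in KO. Rasgrp2 (-1.41) was past the limit between genotype labels under control, and Itga6 (-1.56) and Cd24a (0.93) under the high-fat diet. All ratios of this list are for the whole endothelial gate, without the alternatives given for the members. The share of cells with at least 3 capillary markers differed between libraries, and its part in these ratios was not tested.

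Smooth muscle cells held Vcam1 and Itga4 at low levels. Vcam1 stood at 63.1, 31.1, 64.0 and 149 CPM, yet the share of cells with a UMI was 20.1%, 20.4%, 25% and 20%. The UMIs were unevenly spread: over the 4 libraries, 18 of 1958 cells held as many of them as all the others together. The highest cell held 83 of 1298 UMIs in Lox_CTR, 15 of 171 in KO_CTR, 25 of 48 in Lox_HFD and 147 of 466 in KO_HFD. Ratios were 0.02 (-0.43 to 0.44) with diet in Lox, 2.26 (2.00 to 2.52) with diet in KO, and -1.02 (-1.26 to -0.79) and 1.22 (0.79 to 1.68) between genotype labels under control and high-fat diet. Without the highest cell of each library the diet ratio in Lox was -0.92, and the other ratios are given here for all cells only. The number of members past the limit in smooth muscle was 1 of 6 and 3 of 4 with diet in Lox and KO (13.1% and 9.34% of all genes), and 3 of 6 and 3 of 4 between genotype labels under control and high-fat diet (11.7% and 7.84%).

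Itga4 in smooth muscle was spread over more cells. It stood at 12.6, 37.4, 24.0 and 6.71 CPM, with a UMI in 13.9%, 34.0%, 14.1% and 7.06% of cells and no more than 10 UMIs in any of them. KO_CTR was highest and KO_HFD lowest. The ratio was 0.93 (0.15 to 1.61) with diet in Lox, from 18 UMIs in Lox_HFD, and -2.48 (-3.20 to -1.83) in KO. KO against Lox gave 1.57 (1.30 to 1.84) under control and -1.84 (-2.82 to -0.84) under the high-fat diet. All 323 smooth muscle cells with Itga4 also had its beta subunit partner Itgb1, which 99.6% of all smooth muscle cells had. Icam1 in smooth muscle was 12.6, 4.91, 17.3 and 14.4 CPM, with a diet ratio of 1.55 (0.83 to 2.30) in KO and a genotype ratio of -1.36 (-1.99 to -0.79) under control. Sele, at 24.0 CPM in 1 cell of Lox_HFD, gave the genotype ratio of -3.65 under the high-fat diet. Selplg, Itgam and Itgb2 had no ratio past the limit in smooth muscle, and Icam2, Selp and Itgal had too few UMIs for one.

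In fibroblasts the abundant members moved little. Vcam1 had ratios of -0.36, 0.17, -0.30 and 0.24 and Icam1 of -0.49, 0.02, -0.10 and 0.41, for diet in Lox, diet in KO, genotype under control and genotype under the high-fat diet, and none was past the limit. Vcam1 differed between fibroblast groups gated on pairs of genes. It stood at 286 CPM in cells with Cilp and Meox1, 271 with Comp and Fmod, 176 with Penk and Fgf10, 106 with Pi16 and Dact2 and 14.8 with Tfap2b and Mab21l2. Icam1 in the same groups was 194, 263, 156, 108 and 116 CPM. The group with Tfap2b and Mab21l2 was 73 cells, 66 of them from Lox_CTR. Of the 351 cells with Cilp and Meox1, 156 came from Lox_CTR, 170 from KO_CTR, 5 from Lox_HFD and 20 from KO_HFD.

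The members past the limit in fibroblasts were those that fibroblasts held at under 4 CPM. Their number was 4 of 10 and 4 of 9 with diet in Lox and KO (14.5% and 11.6% of all genes), 6 of 9 between genotype labels under control (13.2%) and 1 of 6 under the high-fat diet (5.41%). Itgam was at 1.59, 0.537, 0.740 and 2.99 CPM, with genotype ratios of -1.57 (-2.50 to -0.74) and 2.01 (0.67 to 3.71) and a diet ratio of 2.48 (1.57 to 3.47) in KO. Itgb2 was at 2.42, 1.15, 2.22 and 3.29 CPM, with 1.51 for diet in KO and -1.07 for genotype under control. Itga4 had 1.13, 1.83 and -0.81 for diet in Lox, diet in KO and genotype under control. Selplg had 0.75 for diet in KO and -1.35 for genotype under control. Sele (-4.75 and -1.94) and Icam2 (-1.65 and -1.14) were past the limit for diet in Lox and genotype under control, and Selp (1.80) for diet in Lox. Sele had 210, 27, 1 and 13 UMIs in order of library, of which the highest cell held 43, 20, 1 and 10. Icam2 had 98, 22, 4 and 11 UMIs, with 6, 4, 2 and 2 in the highest cell. Selp had 18 UMIs in Lox_CTR and 8 in Lox_HFD, with 6 in 1 cell in each. For Itga4, 1 cell held 8 of 23 UMIs in Lox_HFD and 8 of 42 in KO_HFD. Itgal had no ratio past it. All 10 phagocyte markers were present in the fibroblast gate, at a summed 190, 181, 189 and 288 CPM, highest in the library where Itgam was highest, the 6 neutrophil markers were present at a summed 61.8, 10.9, 40.9 and 6.87 CPM, and the part of both in these ratios was not tested.

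The leukocyte side of the system was split between phagocytes and lymphocytes. Selplg, the P-selectin ligand, was most abundant in lymphocytes and almost level across libraries, at 314, 311, 308 and 325 CPM, and lower in phagocytes at 117, 139, 134 and 121 CPM. None of its ratios in either type was past the limit. Itgal, the LFA-1 alpha subunit, stood at 74.4, 64.1, 63.1 and 87.2 CPM in lymphocytes and 34.0, 28.5, 67.9 and 32.3 CPM in phagocytes, and the ranges overlapped through Lox_HFD. It had no UMI in endothelial cells, so the lymphocyte level of 70.2 CPM was at least 24.5-fold higher at a floor of 3 UMIs over the 4 libraries.

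Itgam, the Mac-1 alpha subunit, was a phagocyte gene, at 178, 187, 266 and 212 CPM against 4.41 to 9.39 CPM in lymphocytes. Itgb2, their common beta subunit, stood at 208, 175, 241 and 205 CPM in phagocytes and 65.5, 61.7, 67.5 and 85.9 CPM in lymphocytes, without overlap. Itga4 was shared, with 126, 159.7, 266 and 169 CPM in phagocytes and 111, 106, 167 and 188 CPM in lymphocytes, and the ranges overlapped.

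Phagocytes against lymphocytes gave 8 called members, 5 higher and 3 lower in phagocytes, where 62.0% of all genes were called, 31.9% higher and 30.1% lower. Vcam1 (4.20 ± 0.45, adjusted p = 5.4e-08), Icam1 (2.04 ± 0.24), Selp (2.83 ± 0.81, adjusted p = 0.0046), Itgam (5.16 ± 0.27) and Itgb2 (1.80 ± 0.20) were higher. The Selp call rests on 73 UMIs in 24 of 1483 phagocytes, 18 of them in 1 cell, and 7 UMIs in lymphocytes. Selplg was lower (-1.06 ± 0.20, adjusted p = 1.0e-04), as were Icam2 (-0.98 ± 0.33, adjusted p = 0.013) and Itgal (-0.68 ± 0.21, adjusted p = 0.0095). The Icam2 call was lost without KO_CTR (adjusted p = 0.13), and that of Itgal without Lox_CTR, KO_CTR or KO_HFD (0.051, 0.058 and 0.057). Itga4 did not pass at 0.57 ± 0.29 (adjusted p = 0.094), and passed without KO_HFD (0.75, adjusted p = 0.020). Sele had no lymphocyte UMI. Over all genes 4083 were higher and 3862 lower, or 3350 and 4842 without TMM scaling.

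Against fibroblasts, phagocytes had 7 members higher and Vcam1 lower (-1.28 ± 0.31, adjusted p = 9.6e-04), where 68.2% of all genes were called, 32.4% higher and 35.8% lower. Itgam (7.28 ± 0.26), Itgb2 (6.67 ± 0.24) and Itga4 (6.56 ± 0.38) were the furthest apart, followed by Selplg (5.71 ± 0.26), Itgal (5.54 ± 0.27), Selp (3.77 ± 0.56) and Icam2 (3.69 ± 0.37). Selp rested here on 73 UMIs in 24 of 1483 phagocytes and 33 UMIs in 22 of 7614 fibroblasts. Icam1, at 0.19 ± 0.21 (adjusted p = 0.45), and Sele, at -2.72 ± 1.85 (adjusted p = 0.20), did not pass. Of the adhesion list, 13 were higher and 12 lower in phagocytes than in fibroblasts, beside the 32.4% and 35.8% of all genes, with Fermt3 (6.73 ± 0.21), which locks integrins in their active state, Itgax (6.30 ± 0.45) and Spn (5.96 ± 0.27) at one end and Cd34 (-5.90 ± 0.24), Fermt2 (-4.99 ± 0.22) and Jam3 (-4.67 ± 0.27) at the other. Against lymphocytes 14 were higher and 7 lower, beside 31.9% and 30.1% of all genes, with F11r (4.22 ± 0.41), Alcam (3.94 ± 0.35) and Itgax (3.85 ± 0.49) highest and Cd24a (-3.17 ± 0.32), Pecam1 (-2.91 ± 0.30) and Itgb3 (-2.63 ± 0.45) lowest.

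Phagocytes were then divided by markers of their subsets, where at least 3 markers of 1 subset and of no other were asked for. Itgal stood at 765 CPM (639 to 908) in 24 nonclassical monocytes, patrolling cells of the vessel lumen, and all 24 cells had a UMI. By library its level there was 708, 669, 767 and 1094 CPM, from 9, 5, 6 and 4 cells. Classical monocytes (75 cells) had 136 CPM (113 to 162), and Lyve1+ resident macrophages (776 cells) 1.85 CPM. Itga4 was likewise higher in nonclassical (735 CPM) and classical monocytes (394 CPM) than in cavity macrophages (177 CPM) and Lyve1+ macrophages (97.1 CPM).

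Itgam had less contrast among these subsets. It stood at 311 CPM in cavity macrophages, 229 in nonclassical monocytes, 221 in classical monocytes, 148 in Lyve1+ macrophages and 113 in Acp5 and Cd72 macrophages, and at 396 CPM in the 134 gated neutrophils. Acp5 and Cd72 macrophages were gated on at least 3 of Acp5, Cd72, Trem2 and Ccrl2, so a cell could lack Acp5 or Cd72. Itgb2 was at 594 CPM in nonclassical monocytes, 333 in cavity macrophages, 322 in classical monocytes, 166 in Acp5 and Cd72 macrophages and 131 in Lyve1+ macrophages. Vcam1 stood at 373, 218, 203 and 320 CPM in the 94 Acp5 and Cd72 macrophages, from 53, 12, 5 and 24 cells. These levels were above the 67.4 CPM of Lyve1+ macrophages and the 8.51 CPM of cavity macrophages.

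Lymphocyte subsets differed in the same genes. NK cells (31 cells) had the highest levels of Selplg (719.7 CPM), Itga4 (628 CPM), Itgb2 (371 CPM) and Itgal (225 CPM) among lymphocytes. T cells (426 cells) had 362 CPM of Selplg, 133 of Itgal, 133 of Itga4 and 120.1 of Itgb2. Cells with thymocyte markers such as Rag1 and Dntt (504 cells) had Selplg at 319.9 CPM but Itgal at 38.1, Itgb2 at 30.5 and Itga4 at 70.0 CPM. B cells (137 cells) had Itga4 at 250.2 CPM and Selplg at 49.5 CPM.

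**Figure D4:**
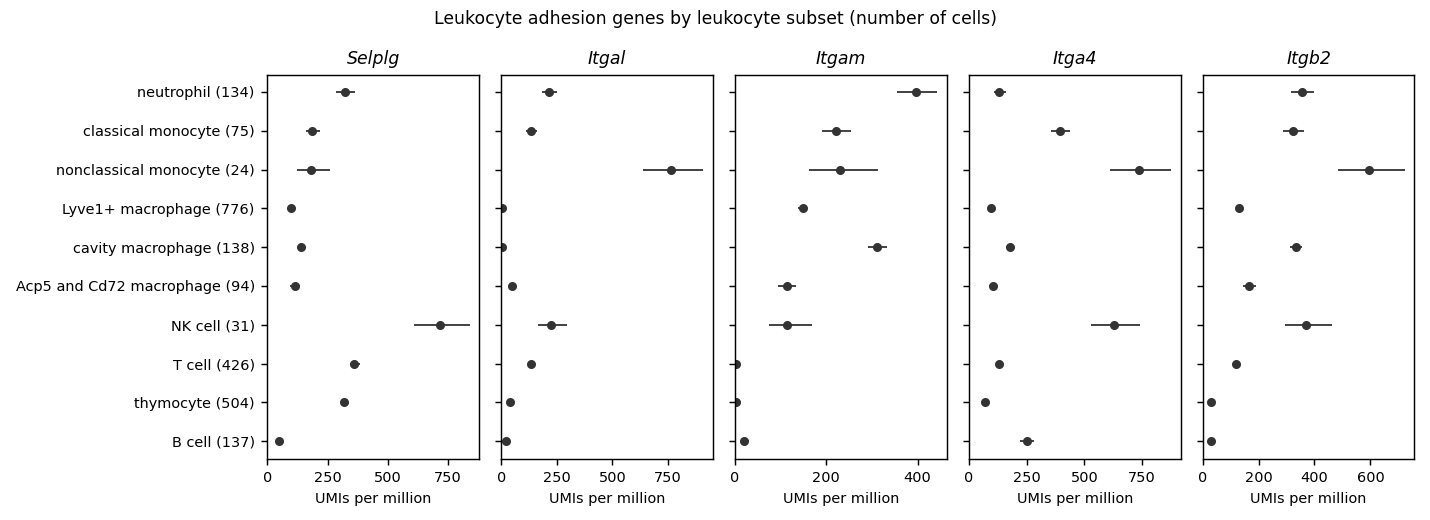
Level in CPM of Selplg, Itgal, Itgam, Itga4 and Itgb2 in marker-gated subsets of phagocytes and lymphocytes and in neutrophils, pooled over the 4 libraries, with exact Poisson 95% intervals. Itgal reaches 765 in nonclassical monocytes and 1.85 in Lyve1+ macrophages.

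The integrin subunits were read for their partners in the same cell. Of 178 phagocytes with Itgal, 90.4% also had Itgb2, and of 954 with Itgam, 76.3% did, while 68.7% of all phagocytes had Itgb2. Among lymphocytes with Itgal the share was 48.7%, against 37.1% of all lymphocytes. Itga4 can pair with Itgb1 (VLA-4) or Itgb7: of the phagocytes with Itga4, 95.3% had Itgb1 and 17.8% Itgb7, while of lymphocytes with Itga4, 67.9% had Itgb1 and 35.8% Itgb7. Of all phagocytes 93.6% had Itgb1 and 11.5% Itgb7, and of all lymphocytes 56.5% and 33.8%. Itgb7 was found with Itga4 in 76.5% of classical monocytes, 58.8% of B cells and 54.0% of T cells that had Itga4, and in 1.62% of such Lyve1+ macrophages. Over all cells of these subsets the shares with Itgb7 were 76.0%, 53.3%, 60.8% and 1.55%. Depth was not matched between the cells behind these shares.

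With diet, phagocyte Itga4 and Itgal were higher in Lox and not in KO. Itga4 had ratios of 1.08 (0.90 to 1.25) and 0.09 (-0.11 to 0.28), and Itgal of 1.0 (0.64 to 1.34) and 0.18 (-0.28 to 0.64). Under the high-fat diet KO was below Lox for both, at -0.65 (-0.86 to -0.45) and -1.07 (-1.52 to -0.63). Whether diet acted differently in the 2 genotypes was not tested. Of the members counted in phagocytes, 5 of 9 and 2 of 9 were past the limit with diet in Lox and KO (19.9% and 13.1% of all genes), and 3 of 9 each between genotype labels (26.5% under control, 11.4% under the high-fat diet). Itgam (0.58 and 0.18) and Itgb2 (0.21 and 0.23) were not past it with diet, nor between genotype labels (0.07 and -0.33, -0.25 and -0.23). Vcam1 had 0.60 (0.38 to 0.82) for genotype under control, past the limit, where the median ratio of all genes was 0.25. It had 0.07, -0.13 and 0.40 in the other comparisons. Sele had too few UMIs.

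The subsets that hold these genes took different shares of the phagocytes. Classical monocytes were 3.98%, 4.01%, 15.3% and 4.36% and nonclassical monocytes 1.20%, 1.54%, 4.58% and 1.45%, highest in Lox_HFD for both. The part of these shares in the ratios was not tested. Within classical monocytes the Itgal diet ratio in Lox was -1.10, from 20 cells of Lox_HFD and 30 of Lox_CTR. Within nonclassical monocytes it was 0.12, from 6 and 9 cells. The Itga4 diet ratio in Lox was 0.03 within classical monocytes and 1.14 (0.70 to 1.56) within Lyve1+ macrophages, from 76.2 to 168 CPM. In KO the Itga4 diet ratio within Lyve1+ macrophages was 0.03 (-0.31 to 0.38). Lyve1+ macrophages also had Vcam1 at 42.5, 99.0, 89.8 and 97.9 CPM, lowest in Lox_CTR, with a genotype ratio under control of 1.22 (0.89 to 1.55).

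Icam1 in phagocytes was lowest in Lox_HFD, with a diet ratio of -0.61 (-0.84 to -0.38) in Lox and a genotype ratio of 0.67 (0.42 to 0.92) under the high-fat diet. Icam2 (0.68, 2.48 and -1.68) and Selp (1.89, 4.50 and -3.36) in phagocytes were past the limit for diet in Lox, diet in KO and genotype under control, from 12 to 123 and 1 to 33 UMIs per library. Few cells held these UMIs. In order of library, the highest phagocyte held 47 of 123, 2 of 12, 11 of 29 and 19 of 62 Icam2 UMIs. For Selp it held 9 of 33, 1 of 1, 18 of 18 and 8 of 21. Of the other adhesion genes counted in phagocytes, 9 of 25 and 6 of 24 were past the limit with diet in Lox and KO. Between genotype labels 7 of 27 were under control and 9 of 24 under the high-fat diet. The shares of all genes were 19.9%, 13.1%, 26.5% and 11.4%. Cd24a stood at 2.29 with diet in KO and -2.26 between genotype labels under control. Itga6 stood at 2.09 with diet in Lox and Itgb7 at -2.08 between genotype labels under the high-fat diet.

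In lymphocytes Itga4 was higher with diet under both genotype labels. The ratio was 0.59 (0.37 to 0.81) in Lox, close to the limit of 1.5-fold, and 0.83 (0.54 to 1.12) in KO. The genotype ratios were -0.07 and 0.17. The median diet ratio of all genes counted in lymphocytes was 0.08 in Lox and -0.17 in KO. The makeup of the gate changed as well: T cells were 39.4%, 30.3%, 36.2% and 61.6% of lymphocytes and cells with thymocyte markers 40.0%, 58.8%, 48.6% and 19.2%. The part of this makeup in the ratios was not tested. Within T cells Itga4 stood at 90.0, 125, 232 and 203 CPM, both high-fat libraries above both controls, with ratios of 1.36 (0.98 to 1.75) and 0.70 (0.26 to 1.14). Lymphocyte members past the limit were 2 of 8 and 2 of 7 with diet (14.8% and 20.9% of all genes) and 0 of 8 and 1 of 7 between genotype labels (18.5% and 15.6%). Besides Itga4 these were Icam1, with 0.83 (0.36 to 1.29) for diet in KO and 0.80 (0.26 to 1.34) for genotype under the high-fat diet, and Vcam1 for diet in Lox, from 10 and 17 UMIs (2.27). In Lox_HFD 1 lymphocyte held 10 of the 17 Vcam1 UMIs. Icam2, Selplg, Itgal, Itgam and Itgb2 had no ratio past the limit in lymphocytes, and Selp and Sele had too few UMIs.

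Over the 5 cell types together, 16 of 38 ratios of members were past the limit with diet in Lox and 14 of 34 in KO, and 15 of 37 and 12 of 31 between genotype labels under control and high-fat diet, where 15.8%, 14.0%, 16.5% and 9.99% of all genes counted were. The 16 became 9 with a 2-fold limit and 9 without the highest cell of each library. Centred on the median gene of the same comparison and type, 15, 15, 16 and 13 members were past it. The share of all genes was not computed under these alternatives, so these counts have no background of their own. For the adhesion list the counts were 41 of 127, 29 of 114, 26 of 130 and 18 of 106, to be read beside the same shares of all genes.

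The genes whose pattern over the 20 sums was most like each member were ranked by Pearson's correlation of log2(CPM + 10) among 12961 genes. Sums of one library share its depth and those of one type its cells, so the values are a description. Selp was closest to Vwf (0.969), an endothelial marker of the gate that is stored with P-selectin in the same granules, then Bmx (0.966) and Slco2a1 (0.966). Icam2 was closest to Nrarp (0.967), Vcam1 to Cpd (0.960) and Sele to Tbx1 (0.959). Among leukocyte members, Itgam was closest to Lilrb4a (0.994), Itgal to Bin2 (0.993), Itgb2 to Cd48 (0.991), Selplg to Gpr132 (0.990) and Itga4 to Pik3cd (0.962). Icam1 was closest to Clec2d (0.963).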

How the data were processed

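Per the labels and the methods, the authors sorted DAPI-negative cells, made 10x Chromium 3′ v3.1 libraries and mapped reads to mm10 with Cell Ranger 6.1.2. The deposited values are raw counts of UMIs per gene and barcode. As in the methods, barcodes were kept if they had between 200 and 6000 genes and no more than 15% of UMIs from mitochondrial genes. A cell was gated to a type by the number of its markers present and their UMIs per 10000, and cells of several types (491) or none (1124) were left out. Doublets were not removed, and removing those called by Scrublet was an alternative.

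CPM are UMIs of the gene per 1000000 UMIs of the same cells, with exact Poisson intervals. Intervals of shares of cells are Clopper-Pearson (exact), and a count of 0 has a floor of 3 UMIs. Intervals cover counting error only. Each library holds 1020 to 7890 kept cells, so values of Lox_HFD, and endothelial and lymphocyte values of KO_HFD, are the least precise. UMIs summed per library and type were tested with edgeR 4.0.16 (filterByExpr, TMM, glmQLFit, glmQLFTest, Benjamini-Hochberg), with DESeq2 1.42.0 as an alternative. The test was also run on simulated counts in which the types shared a profile apart from set changes in endothelial cells. That run held no differences between conditions that vary by type, and its outcome is not given here. SEs were taken from the F statistic. Calls among all genes leave out the 51 type markers. Python 3.11.15, scanpy 1.11.5 and R 4.3.3 were used. Gene positions are from GENCODE M21. No protein sequence was used here.

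The members, lists and tests were chosen with earlier results of these data known, the gate thresholds after the marker counts were seen, and the capillary, fibroblast and highest-cell alternatives after the members' values were seen. All members are named in every comparison of cell types, and members with under 20 UMIs over a pair of libraries have no ratio. Of the adhesion list, the text names up to 3 called genes per direction with the largest fold change in a contrast, and up to 2 with the largest ratio per cell type; 1 gene of that list that the rule names is not reported here.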

Additional observations from a re-analysis of the deposited data

Results flagged for a closer look

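Several ratios between libraries went opposite ways under the 2 genotype labels or diets. Each rests on 1 library per group, and the differences between them were not tested. Endothelial Icam1 had a diet log2 ratio of 0.70 in Lox and -0.62 in KO, from 41 to 97 UMIs per library. Smooth muscle Itga4 had diet ratios of 0.93 in Lox and -2.48 in KO, and genotype ratios of 1.57 under control and -1.84 under the high-fat diet. Without the highest cell of each library its diet ratio in Lox was 0.66 (-0.24 to 1.43). Smooth muscle Vcam1 had genotype ratios of -1.02 under control and 1.22 under the high-fat diet, with a similar share of positive cells in every library. Fibroblast Itgam had genotype ratios of -1.57 and 2.01, from 5 to 84 UMIs per library.

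The barcodes that the cell filters removed also held UMIs of every member, which no comparison above uses. Over the 4 libraries they had 179 CPM of Vcam1, 139 of Icam1, 11.7 of Icam2, 10.6 of Selp, 9.66 of Sele, 41.6 of Selplg, 8.58 of Itgal, 22.1 of Itgam, 41.1 of Itga4 and 29.7 of Itgb2.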

How the results depend on the processing

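Alternatives for the cell type tests were DESeq2, no TMM scaling, no filter on low counts, no library block, stricter and looser gates, removal of Scrublet doublets, a 10% mitochondrial limit and leaving out each library. The number of genes called stayed within 1.5 times in all 72 fits, and the number of members called in 70 of 72. The exceptions were fibroblasts against smooth muscle, where 3 members became 5 with no filter on low counts, and 3 to 5 when each library was left out. Sele in that contrast, 0.03, became -2.49 (adjusted p = 0.033) without Lox_CTR. That library held 210 of the 251 Sele UMIs in fibroblasts and 1 of the 37 in smooth muscle. Over all libraries 5 smooth muscle cells had a Sele UMI. The cause of the change was not tested. Of 720 fold changes of members, 693 kept their status as called or not called, 19 gained and 7 lost a call and 1 reversed. Direction was compared only where at least 1 of the 2 fits was called, so the 693 may hold uncalled fold changes that changed sign. Itgb2 in endothelial cells against smooth muscle, at an adjusted p of 0.053, was called under 7 of the 12 alternatives. Its endothelial level rests on 9 UMIs in 3 of 166 cells, and 7 of these UMIs were in 1 cell of Lox_HFD.

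The block pairs cell types of the same library and thus of the same pooled mice. Without the replicate block 4196, 3955 and 5216 genes were called for endothelial cells against smooth muscle, fibroblasts and phagocytes, 5262 for fibroblasts against smooth muscle, 8153 for phagocytes against fibroblasts and 7476 against lymphocytes, and the members called remained 6, 4, 9, 3, 8 and 8 in number.

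For the ratios, 16 members past the limit with diet in Lox became 9 with a 2-fold limit and 9 without the highest cell of each library, and the number was within 1.5 times under the other alternatives and comparisons. The share of all genes past the limit was not computed under these alternatives. Of the members' levels 25 moved and 175 did not (16 of those that moved did so under the stricter gate), of their ratios 60 moved and 1071 did not, and of the shares thinned to 2000 in place of 1000 UMIs 29 moved and 21 did not. Of the 1071 ratios, 140 are those under the 2-fold limit, which alters only the call, so that they could not move. The endothelial values rest on few cells, under 30 in 2 libraries.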
